A study of Mus musculus with 8 samples.

Results

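Cxcl1, Cxcl2, Cxcl3, Cxcl5, Cxcr2 and Cxcr4 were followed through the tumor and blood cells of irradiated and control mice, to see which cells held the mRNA of the neutrophil-attracting chemokines and which held that of their receptors. The 6 genes were chosen by name, with earlier results of these data known, out of the 32285 genes counted. They held 932876 UMIs (unique molecular identifiers, 1 per captured mRNA molecule) in 27453 cells. The cells came from C57BL/6J mice bearing MC38 tumors, a mouse colon carcinoma line, and were sorted as CD45+CD11b+Ly6Chi from the tumor or from blood. WT mice were Ythdf2 fl/fl and cKO mice were Lyz-Cre;Ythdf2 fl/fl, in which Cre is driven by a lysozyme promoter active in myeloid cells. The controls of both genotypes carried the same floxed alleles. Mice received a single dose of 20 Gy local to the tumor (IR) or none (control), and cells were collected 3 days later. WT and cKO cells were tagged with 2 hashtag antibodies and loaded together, giving 4 libraries, named Tumor or Blood with Control or IR, and 8 groups. Each group was 1 pool of 5 mice, males and females, aged 8 to 10 weeks, so no group had a replicate. No test between conditions was possible, intervals cover counting error only, and differences between mice cannot be told apart from differences between conditions. Control and IR cells were in separate libraries, so library and IR cannot be told apart either.

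CXCL1, CXCL2, CXCL3 and CXCL5 are small secreted chemokines that carry a glutamate-leucine-arginine motif before the first cysteines and act through CXCR2, a G protein-coupled receptor of neutrophils. Macrophages, stromal cells and neutrophils themselves make them during inflammation, largely through NF-kB, and CXCR2 signalling moves neutrophils out of the marrow and into inflamed tissue and tumors. CXCR4, the receptor for CXCL12, holds neutrophils and their precursors in the marrow and is raised on aged neutrophils.

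All 4 ligand genes lay on the plus strand of chromosome 5 within 147 kb (mm10 annotation): Cxcl5 at chr5:90759360-90761624, Cxcl3 at chr5:90786103-90789600, Cxcl1 at chr5:90891241-90893115 and Cxcl2 at chr5:90903871-90905938. Cxcr2 lay at chr1:74153989-74161246 on the plus strand and Cxcr4 at chr1:128588199-128592293 on the minus strand. RefSeq promoter windows (GRCm38.p6, from 250 bases before to 50 bases after the gene start) were found for 5 of the 6 genes. The letters GGAATTTCC, an NF-kB binding motif, were searched in each window on both strands, the other strand reading GGAAATTCC. The windows of Cxcl1, Cxcl2 and Cxcl3 held the motif and those of Cxcr2 and Cxcr4 did not, against 104 of 32851 promoter windows (0.317%). The match began at position -70 in Cxcl1, -96 in Cxcl2 and -72 in Cxcl3 relative to the RefSeq gene start, on the plus strand. The 150 bases before the start are printed for these 3 ligands, the ones with UMIs in quantity, with the motif in capitals. A match is a description of letters, not a measured binding site.
Cxcl1, chr5:90891095-90891244: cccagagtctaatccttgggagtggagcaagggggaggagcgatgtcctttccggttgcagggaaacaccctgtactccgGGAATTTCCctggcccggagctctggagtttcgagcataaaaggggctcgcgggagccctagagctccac
Cxcl2, chr5:90903749-90903898: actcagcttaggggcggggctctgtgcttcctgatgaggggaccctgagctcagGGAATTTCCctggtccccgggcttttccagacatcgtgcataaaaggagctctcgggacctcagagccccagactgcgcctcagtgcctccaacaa
Cxcl3, chr5:90785951-90786100: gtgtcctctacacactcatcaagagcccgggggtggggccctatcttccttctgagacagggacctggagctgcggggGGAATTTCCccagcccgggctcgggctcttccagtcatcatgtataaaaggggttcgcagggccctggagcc

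The groups held 2145 to 4618 cells and 18921511 to 24706177 gene UMIs, with group medians of 6010 to 8536 UMIs per cell in tumor and 2868 to 3212 in blood. Ythdf2 stood at 303 to 371 CPM (UMIs per 1000000 gene UMIs) in the cKO-labelled groups against 32.9 to 55.7 CPM in the WT-labelled ones, and Lyz2 at 83.3 to 138 against 5597 to 14094 CPM. The tags lie near the 3′ end, and whether they fall in the deleted part of Ythdf2 is not given in the sources used here. Genotypes below are therefore those of the hashtag labels. The sort did not hold by marker genes: neutrophil-like cells made up 67.0% to 71.2% of the blood cells, and fibroblast-like cells 1.22% to 11.7% of the tumor cells. The Tumor Control and Tumor IR matrices shared 12259 called barcodes of 12863 and 12682, against 21 to 45 between any other 2 libraries. Cells were placed by their hashtags, which passed the minimum in both tumor matrices for 273 barcodes. Read in the other tumor matrix, the Tumor IR barcodes gave 0.591 times the UMIs at nearly the same composition, with Cxcl2 at 7962 against 8046 CPM and Cxcr2 at 22.8 against 22.6 CPM. Tumor values are therefore also given from the sum of both matrices or without the 273 barcodes where that changed them.

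By group, Cxcl1 and Cxcl3 were found mainly in tumor and Cxcr2 mainly in blood, with Cxcl2 abundant in both. Cxcl1 stood at 664 CPM (95% Poisson interval 653 to 675) in Tumor Control WT, 1314 (1300 to 1329) in Tumor Control cKO, 557 (547 to 567) in Tumor IR WT and 291 (284 to 297) in Tumor IR cKO. In blood it was nearly absent, with 1, 6, 8 and 0 UMIs in Blood Control WT, Blood Control cKO, Blood IR WT and Blood IR cKO. Cxcl2 stood at 4575, 6853, 9366 and 6961 CPM in the same order of tumor groups and at 2079, 897, 1249 and 444 CPM in the blood groups. Every tumor group was above every blood group, and within blood both cKO groups were below both WT groups. Cxcl3 stood at 365, 245, 1325 and 1024 CPM in tumor, both IR groups above both controls, and at 9.47, 1.98, 4.14 and 1.22 CPM in blood. Cxcl5, a ligand made mostly by epithelial and stromal cells, was close to undetected, with 3, 9, 2 and 16 UMIs in tumor and 0 in each blood group, where 0 allows up to 0.159 CPM. The 16 UMIs of Tumor IR cKO came from 2 cells. Cxcr2 stood at 2.32, 3.46, 27.0 and 19.0 CPM in tumor and at 685, 662, 693 and 752 CPM in blood. Cxcr4 was the most even member, at 140, 91.3, 156 and 145 CPM in tumor and 269, 179, 257 and 211 CPM in blood.

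**Figure D1:**
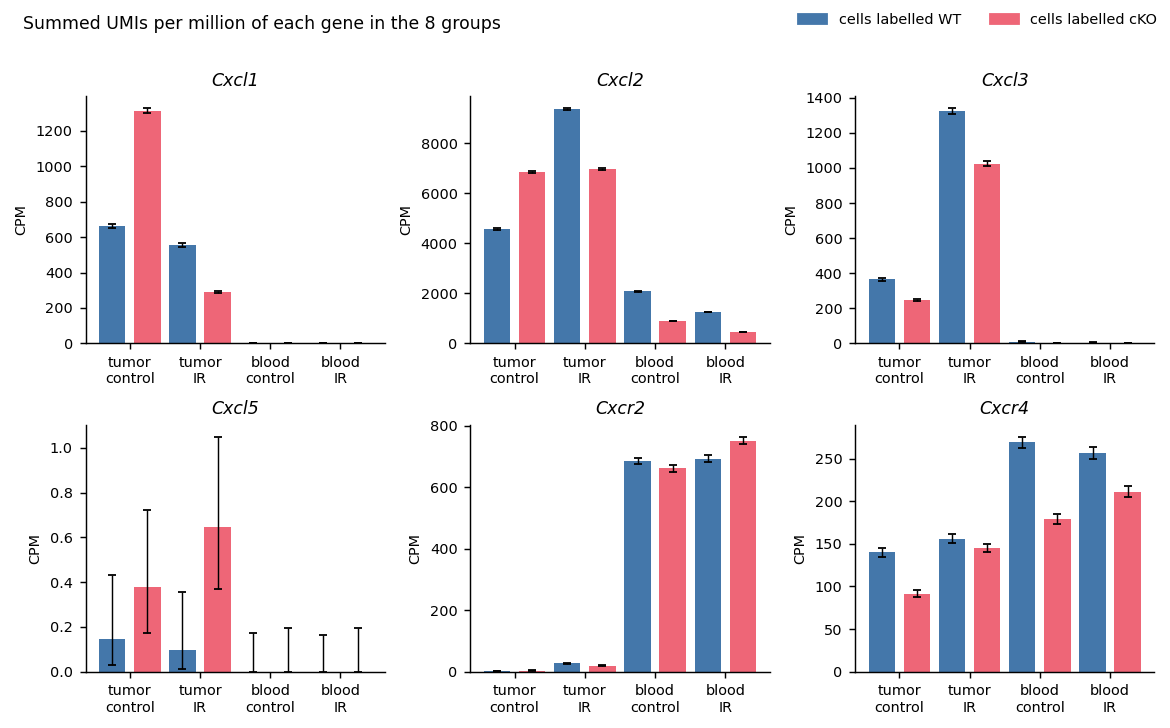
Each panel plots 1 gene as CPM, UMIs per 1000000 gene UMIs (linear axis from 0) in the 8 groups, with 95% Poisson intervals for counting error only. The ligands Cxcl1 and Cxcl3 stood in the tumor groups, Cxcr2 stood in the blood groups, and Cxcl2 and Cxcr4 were seen in both.

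To place the mRNA in cell types, cells were clustered without the 6 genes and clusters were named from marker lists that did not hold them, each name given as a likeness. In tumor the classes with at least 50 cells were macrophage-like (clusters 3, 6 and 10), neutrophil-like (nearly all cluster 12), fibroblast-like (clusters 17 and 21), dendritic cell-like and NK cell-like cells. Cluster 3 took its name on 4 raised macrophage markers against 3 monocyte markers. Cluster 21 had 6 fibroblast markers raised, but cell-cycle genes such as Ube2c, Cenpf and Top2a led it. Clusters 2, 9 and 13 stayed unnamed. Cluster 2, with 2773 cells, had raised macrophage genes such as C1qb, Trem2, Arg1 and Spp1 but also the monocyte gene Ccr2 among its leading genes. Cluster 9 had raised monocyte genes such as Plac8, F13a1 and Chil3, but the nonclassical monocyte genes Ace and Adgre4 were among its 10 leading genes. Cluster 13 was led by Gm26917, Gm42418 and Malat1, and 5 of its 10 leading genes were mitochondrial. NK cells, which are not known as makers of these chemokines, served as the measure of free RNA. The 365 tumor NK cell-like cells, with a median of 2463 UMIs, had Cxcl2 at 137 CPM in 29.0% of cells, Cxcl1 at 19.9 CPM in 5.75%, Cxcl3 at 12.4 CPM in 4.11% and Cxcr2 in 0 of 365 cells. Empty droplets held Cxcl2 at 6540 CPM in Tumor Control and 7400 CPM in Tumor IR, and Cxcl1 at 944 and 489 CPM. Cxcl3 stood there at 735 and 1208 CPM. Since the tumor matrices shared most called barcodes, their empty droplets may also hold RNA of both conditions, which was not tested.

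Fibroblast-like cells held the densest Cxcl1. Cxcl1 stood at 2432 CPM (2380 to 2485) in the 114 fibroblast-like cells of Tumor Control WT, 2820 (2782 to 2859) in the 252 of Tumor Control cKO and 2941 (2866 to 3018) in the 79 of Tumor IR WT, and 85.1%, 88.1% and 75.9% of these cells had a UMI. The 46 cells of Tumor IR cKO were below the class minimum of 50. These cells were deep, with class medians of 18395 to 27776 UMIs, and after thinning each cell to 1000 UMIs 60.4% to 64.6% still had a Cxcl1 UMI, against 2.11% of NK cell-like cells. Macrophage-like cells held Cxcl1 at 582, 791, 427 and 282 CPM in Tumor Control WT, Tumor Control cKO, Tumor IR WT and Tumor IR cKO, all below every fibroblast-like value. Each macrophage-like value was also below the empty droplets of its library, at 944 CPM in Tumor Control and 489 CPM in Tumor IR. Cxcl1 in the empty droplets moved in the same direction with IR, and the part of free RNA in these levels was not tested. Within macrophage-like cells the mRNA sat in a minority, with 93.1% and 95% of the Cxcl1 UMIs of Tumor IR WT and cKO in the top 10% of cells. Cluster 6, led by Hspa1a, Mmp13, Mmp12, Thbd and Hmox1, held Cxcl1 more densely than cluster 3, at 1011, 1799, 1096 and 601 CPM. Cluster 3, which was led by interferon-induced genes such as Rsad2 and Cmpk2, held 249, 430, 118 and 100 CPM. These are densities and not shares of the UMIs. In Tumor Control cKO, cluster 6 was 92 and cluster 10 was 513 of the 698 macrophage-like cells. Neutrophil-like tumor cells held Cxcl1 at 389 CPM in 10.4% of cells (Tumor IR WT) and 153 CPM in 8.84% (Tumor IR cKO). Both values were also below the Tumor IR empty droplets.

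Cxcl2 was the reverse: neutrophil-like cells held it most densely and fibroblast-like cells far less. In the 327 neutrophil-like cells of Tumor IR WT it stood at 72042 CPM (71401 to 72687), and in the 249 of Tumor IR cKO at 54580 CPM (53933 to 55233). A UMI was seen in 99.7% and 99.2% of these cells, with medians of 133 and 94 Cxcl2 UMIs per cell out of median totals of 1948 and 1864. Macrophage-like cells came next, at 7653, 9948, 10559 and 7989 CPM across the 4 tumor groups, with a UMI in 84.5% to 92.1% of cells. At 1000 UMIs per cell 99.3% and 98.9% of the neutrophil-like and 73.2% and 71.8% of the macrophage-like cells of the IR groups kept a UMI, against 12.4% of NK cell-like cells. Cluster 6 stood highest among the macrophage-like clusters, at 11753, 20355, 19197 and 12929 CPM. The unnamed clusters held it at 5265, 10679, 5150 and 4356 CPM, most of it in cluster 2. Except in Tumor Control cKO, these values were below the empty droplets, at 6540 CPM in Tumor Control and 7400 CPM in Tumor IR. The part of free RNA in these levels was not tested. Fibroblast-like cells held Cxcl2 at 256 to 321 CPM, and 15.9% of them kept a UMI after thinning, against the NK cell-like 12.4%. Dendritic cell-like cells held it at 279 to 743 CPM, above the 137 CPM of NK cell-like cells, while 13% of them kept a UMI after thinning. Most of it sat in few dendritic cell-like cells, with up to 374 Cxcl2 UMIs in 1 cell.

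Cxcl3 followed Cxcl2 but was concentrated in fewer cells. It stood at 10420 CPM (10177 to 10667) in the neutrophil-like cells of Tumor IR WT and 8867 CPM (8607 to 9133) in those of Tumor IR cKO, with a UMI in 76.1% and 69.9% of cells. Macrophage-like cells held 872, 431, 1630 and 1255 CPM, in 25.9%, 22.6%, 42.2% and 42.0% of cells. Both IR values were above both control values. In cluster 6 it stood at 2708, 3552, 4313 and 2928 CPM, against 125, 90.1, 397 and 308 CPM in cluster 3. The cluster 3 values were below the Cxcl3 of empty droplets, at 735 CPM in Tumor Control and 1208 CPM in Tumor IR. So was the macrophage-like value of Tumor Control cKO, and the part of free RNA in these levels was not tested. Cluster 6 made up 437 of the 1511 and 700 of the 2027 macrophage-like cells of Tumor IR WT and cKO. Fibroblast-like cells held 11.3, 1.79 and 84.5 CPM in the 3 groups with 50 cells, and 1.01% of them kept a UMI after thinning, against 1.32% of NK cell-like cells. In Tumor IR WT 1 of the 79 fibroblast-like cells held 139 Cxcl3 UMIs.

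**Figure D2:**
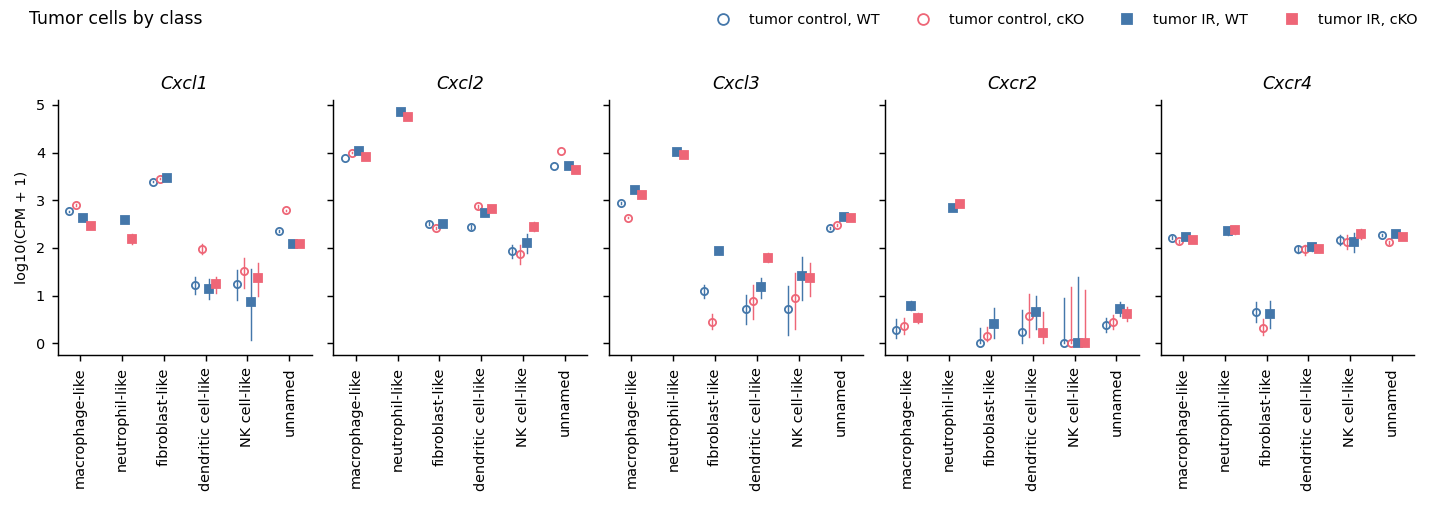
Level of Cxcl1, Cxcl2, Cxcl3, Cxcr2 and Cxcr4 in each tumor class of at least 50 cells, as log10(CPM + 1), with 95% Poisson intervals, 1 point for each of the 4 tumor groups. Cxcl1 was highest in fibroblast-like cells, Cxcl2, Cxcl3 and Cxcr2 were highest in neutrophil-like cells, and Cxcr4 differed less between classes apart from fibroblast-like cells, where it stood near 0.

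Because classes differed in size, the densest class was not always the largest source. In Tumor IR WT, macrophage-like cells held 57.9% (95% exact binomial interval 57.7 to 58.1) of the UMIs of the 4 ligands, and in Tumor IR cKO 67.0% (66.8 to 67.2), while making up 48.5% and 53.9% of the cells. Neutrophil-like cells held 24.3% and 15.5% of the ligand UMIs from 10.5% and 6.62% of the cells and 3.3% and 2.02% of all gene UMIs. Cluster 6 alone held 35.1% and 41.2%, from 14.0% and 18.6% of the cells. In the control tumors macrophage-like cells held 42.9% and 39.6%, neutrophil-like cells 1.44% and 1.47%, and the unnamed clusters 47.0% in each genotype, mainly cluster 2 with 44.1% and 43.1%. Cluster 2 was 38.0% and 33.0% of the control cells. The macrophage-like share depended on where the class line was drawn and ran from 36.1% to 69.7% in WT and from 42.5% to 80.7% in cKO over the alternative settings. For Cxcl1 the order differed: fibroblast-like cells held 61.0% and 65.7% of its UMIs in the control tumors, 51.8% in Tumor IR WT and 31.4% in Tumor IR cKO, and macrophage-like cells 23.1%, 17.9%, 39.6% and 56.4%.

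**Figure D3:**
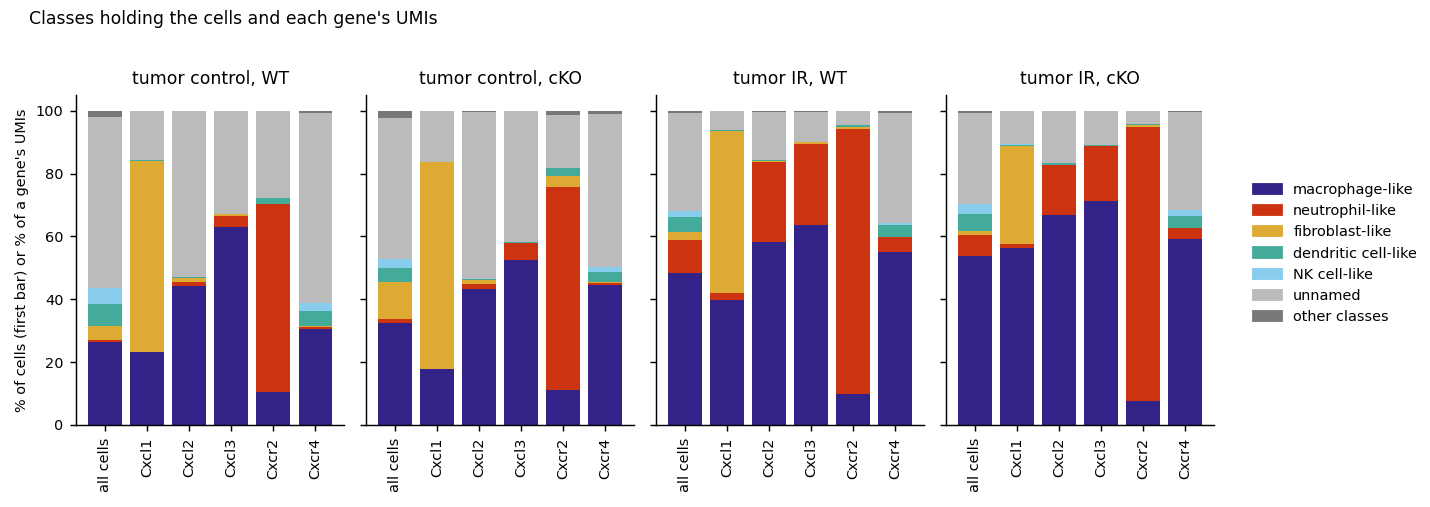
Stacked bars give, for each of the 4 tumor groups, the percent of cells and the percent of each gene's UMIs that came from each class. Fibroblast-like cells take a large part of the Cxcl1 bars, macrophage-like and unnamed cells most of the Cxcl2 and Cxcl3 bars, and neutrophil-like cells most of the Cxcr2 bars.

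Among the tumor classes, Cxcr2, the receptor for these ligands, was densest in neutrophil-like cells, which held most of its UMIs. Cxcr2 stood at 690 CPM (629 to 756) in neutrophil-like cells of Tumor IR WT and 825 CPM (748 to 909) in those of Tumor IR cKO, with a UMI in 56.9% and 60.6% of cells. It stood at 0.935, 1.27, 5.15 and 2.44 CPM in macrophage-like cells, at most 1.51 CPM in fibroblast-like cells, and in 0 of 365 NK cell-like cells, which allows up to 2.49 CPM. Neutrophil-like cells held 84.5% (81.2 to 87.4) and 87.4% (84.1 to 90.3) of the Cxcr2 UMIs of the IR tumors, and 59.6% and 64.6% of the 47 and 82 UMIs of the control tumors. Under a naming rule that compared clusters with all other cells alone, cluster 12 was not named and this share was 0.0% in both genotypes. With cells called by the order-of-magnitude threshold alone, which drops cells of few UMIs, the shares were 57.1% and 45.8%. In the IR WT neutrophil-like cells 11 of 12 neutrophil markers had UMIs, with 0 for Camp, at a summed 54107 CPM, and all 12 macrophage markers had UMIs at a summed 3721 CPM. By the naming rule, cluster 12 had 5 neutrophil markers raised, S100a8, S100a9, G0s2, Hdc and Mmp9, and 2 macrophage markers. Retnlg, Mmp8, Ngp, Camp, Ltf, Ly6g and Wfdc21 were not raised in it.

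Cxcr4 was spread across the tumor classes. It stood at 162, 137, 167 and 148 CPM in macrophage-like cells, 224 and 235 CPM in neutrophil-like cells of the IR groups, 185, 130, 194 and 171 CPM in the unnamed clusters and 91.6 to 102 CPM in dendritic cell-like cells. NK cell-like cells, which express it by common knowledge, held 155 CPM. Fibroblast-like cells held 1.10 to 3.56 CPM, but these cells were deep, so their CPM cannot measure free RNA in the shallower classes. Empty droplets held Cxcr4 at 145 CPM in Tumor Control and 163 CPM in Tumor IR. The part of free RNA in the Cxcr4 of each class was not tested. In the IR tumors macrophage-like cells held 55.0% and 59.3% of the Cxcr4 UMIs and neutrophil-like cells 4.73% and 3.26%.

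Ligand and receptor mRNA were seen in the same neutrophil-like cells. In Tumor IR WT 185 of 327 cells (56.6%) had UMIs of both Cxcl2 and Cxcr2, 141 of Cxcl2 without Cxcr2, 1 of Cxcr2 without Cxcl2, and none lacked both. In Tumor IR cKO 150 of 249 cells (60.2%) had both. Cxcl2 and Cxcl3 were seen together in 248 and 174 cells, and Cxcr2 with Cxcr4 in 55 and 35. Macrophage-like cells with Cxcl2 and Cxcr2 were 1.72% and 1.09% of that class. Since nearly every neutrophil-like cell had Cxcl2, joint detection there followed the Cxcr2 share.

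After irradiation, the sorted tumor cells, summed over all classes, held more Cxcl3 and Cxcr2 in both genotypes, more Cxcl2 in WT, and less Cxcl1 in cKO. Ratios are given as log2 of CPM in IR over control, with an exact interval for counting error, and are called past the limit at 1 or more in size with at least 100 UMIs in the pair. The members were chosen with earlier results of these data known, so counts beside the share of all genes are a description only. In WT, 3 of the 5 genes with enough UMIs were past the limit, all higher, where 5.75% of all 10154 genes compared were past it. Cxcr2 was higher by 3.51 (3.11 to 4.0), Cxcl3 by 1.86 (1.82 to 1.90) and Cxcl2 by 1.03 (1.02 to 1.05), while Cxcl1 was at -0.25 (-0.29 to -0.22) and Cxcr4 at 0.16 (0.08 to 0.23). In cKO, 3 of 5 were past it against 22.3% of 10680 genes: Cxcr2 higher by 2.45 (2.12 to 2.82), Cxcl3 higher by 2.06 (2.02 to 2.11) and Cxcl1 lower, at -2.18 (-2.21 to -2.14). Cxcl2 in cKO was at 0.02 (0.01 to 0.03) and Cxcr4 at 0.67 (0.59 to 0.75). The median of all genes was -0.13 in WT and -0.18 in cKO, and 0.02 and 0.03 with TMM scaling, under which Cxcl2 was at 1.18 and 0.23 and Cxcl1 at -0.10 and -1.97. Summed over both tumor matrices, Cxcr2 was at 3.46 and 2.62 and Cxcl2 at 1.03 and 0.02. With both hashtags held to a 4-fold margin, the WT ratio of Cxcl2 was 0.75, under the limit, and that of Cxcl1 0.10.

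Cell makeup moved with these ratios. Neutrophil-like cells were 17 of 2521 and 26 of 2145 cells in the control tumors (0.674% and 1.21%) and 327 of 3113 and 249 of 3764 after IR (10.5% and 6.62%), and the summed level of the 12 neutrophil markers went from 228 to 2102 CPM in WT and from 282 to 1328 CPM in cKO, with 7 of the 8 counted markers past the limit in each. Fibroblast-like cells went from 114 and 252 cells (4.52% and 11.7%) to 79 and 46 (2.54% and 1.22%), and the summed fibroblast markers from 726 to 435 CPM in WT and from 1237 to 211 CPM in cKO. In sums over many cells, fewer cells of a type and less mRNA per cell cannot be told apart. Without neutrophil-like cells, Cxcl2 was at 0.68 in WT and -0.18 in cKO, Cxcl3 at 1.52 and 1.89, and Cxcr2 at 2.15 in WT, on 85 against 19 UMIs. Without fibroblast-like cells, Cxcl1 was at -0.06 in WT and -1.63 in cKO, and Cxcl2 at 0.93 and -0.41.

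Within macrophage-like cells the WT ratios were -0.45 (-0.51 to -0.38) for Cxcl1, 0.46 (0.45 to 0.48) for Cxcl2, 0.90 (0.86 to 0.95) for Cxcl3 and 0.04 (-0.08 to 0.16) for Cxcr4, so that 0 of 4 were past the limit, against 6.59% of 7627 genes. That 0 rested on the settings, since Cxcl3 was at or past the limit in 14 of 17 alternatives, at 0.90 to 2.29. In cKO they were -1.49 (-1.55 to -1.43), -0.32 (-0.33 to -0.30), 1.54 (1.49 to 1.60) and 0.12 (0.01 to 0.23), with 2 of 4 past it, against 16.8% of 8477 genes. In the 17 alternatives the cKO ratio of Cxcl1 ran from -1.56 to -0.57 and was under the limit in 5, that of Cxcl2 was above 0 in 3, and that of Cxcl3 stayed past the limit, at 1.53 to 2.52. Different clusters made up the class in each group: cluster 10, led by Folr2, Mrc1 and Ccl8, held 513 of the 698 macrophage-like cells of Tumor Control cKO, clusters 3, 6 and 10 held 226, 235 and 204 in Tumor Control WT, and cluster 3 held 1009 of 1511 and 1227 of 2027 after IR. The WT ratio of Cxcl1 changed sign with the setting, up to 0.63 with all barcodes of 500 UMIs.

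Cluster by cluster, the cKO ratios of Cxcl1 and Cxcl2 were below the WT ones, a difference that had no replicate check. In WT the IR over control ratio of Cxcl2 was 0.28 in cluster 3, 0.71 in cluster 6, -0.21 in cluster 10, 0.17 in cluster 2 and 0.45 in cluster 9. In cKO it was -0.96, -0.65, -1.02, -1.02 and -2.27 in the same clusters, below 0 in all 5. The levels behind the cKO ratios were high in control, for example 5292 CPM in cluster 9 of Tumor Control cKO against 1214, 1664 and 1096 CPM in the other tumor groups. These cluster 9 levels were all below the Cxcl2 of empty droplets, at 6540 CPM in Tumor Control and 7400 CPM in Tumor IR. Cxcl1 was lower after IR in all 5 clusters in cKO, at -2.10, -1.58, -1.93, -2.10 and -3.22, and in WT at -1.07, 0.12, -1.13, -0.67 and -0.17. Cxcl3 was past the limit and higher in clusters 3 and 10 in both genotypes, at 1.66 and 2.23 in WT and 1.77 and 2.76 in cKO. In cluster 6 it was at 0.67 in WT and -0.28 in cKO, and in cluster 9 at 1.82 in WT and -1.84 in cKO. The cluster 3 levels of Cxcl1 and Cxcl3 were below the empty droplets. Droplet Cxcl1 was also lower in Tumor IR than in Tumor Control, at 489 against 944 CPM, and droplet Cxcl3 was also higher. The part of free RNA in these ratios was not tested.

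**Figure D4:**
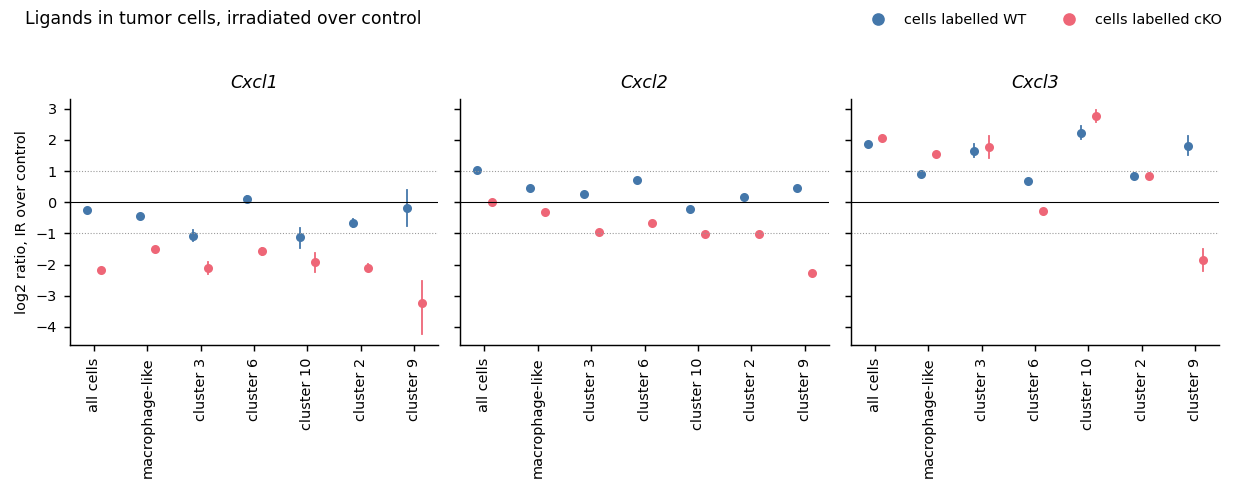
Log2 ratio of IR over control CPM for Cxcl1, Cxcl2 and Cxcl3 in all tumor cells, in macrophage-like cells and in clusters 3, 6, 10, 2 and 9, in WT and cKO, with exact intervals for counting error and dotted lines at the limit of 1. The cKO points for Cxcl1 and Cxcl2 lie below the WT points in each of the 5 clusters, and those for Cxcl3 lie above 0 in clusters 2, 3 and 10 in both genotypes.

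Between genotypes the members stayed under the limit in sums over all sorted tumor cells. In control tumors the log2 ratio of cKO over WT was 0.99 (0.96 to 1.01) for Cxcl1, 0.58 (0.57 to 0.59) for Cxcl2, -0.58 (-0.63 to -0.53) for Cxcl3, 0.57 (0.04 to 1.12) for Cxcr2 and -0.62 (-0.70 to -0.54) for Cxcr4, 0 of 5 past the limit against 4.87% of genes. In IR tumors it was -0.94 (-0.98 to -0.89), -0.43 (-0.44 to -0.42), -0.37 (-0.40 to -0.35), -0.50 (-0.69 to -0.33) and -0.10 (-0.17 to -0.04), again 0 of 5, against 1.29% of genes. Cxcl1 was just under the limit both times and crossed it in control with both matrices summed, at 1.03, without fibroblast-like cells, at 1.06, and with both hashtags held to the 4-fold margin, at 1.20 in control and -1.08 after IR. Genotypes were compared within macrophage-like cells of both tumor conditions, fibroblast-like cells of control tumors, and neutrophil-like and dendritic cell-like cells of IR tumors. In these, 3 ratios of cKO over WT were past the limit. Cxcl3 was at -1.02 (-1.08 to -0.95) in macrophage-like cells of control tumors. In IR tumors Cxcl1 was at -1.34 (-1.74 to -0.98) in neutrophil-like cells, on 76 against 261 UMIs, and Cxcl3 at 2.09 (1.38 to 3.01) in dendritic cell-like cells, on 95 against 16 UMIs. Of those 95 Cxcl3 UMIs, 73 came from 1 cell, a spread that the interval does not cover. Other named classes were not compared, among them dendritic cell-like cells of control tumors. There Cxcl2 was 0.0743% of UMIs in cKO and 0.0279% in WT, with 374 Cxcl2 UMIs in 1 cKO cell.

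In blood, neutrophil-like cells held most of Cxcl2, Cxcl3, Cxcr2 and Cxcr4, but 2 of the few Cxcl1 UMIs. They held 92.5% to 95.6% of the Cxcl2 UMIs of the 4 blood groups, 96.8% to 98.1% of those of Cxcr2 and 81.2% to 89.7% of those of Cxcr4. Cxcr2 was even among them, at 1684 CPM (1656 to 1712) in Blood Control WT, 1623 (1595 to 1652) in Blood Control cKO, 1765 (1737 to 1794) in Blood IR WT and 2038 (2004 to 2072) in Blood IR cKO, with a UMI in 95.8% to 98.0% of cells at medians of 2495 to 2660 UMIs. The 416 blood NK cell-like cells, at a median of 3290 UMIs, held 15.9 CPM in 3.12% of cells, and monocyte-like cells 9.87 CPM. Nonclassical monocyte-like cells held 55.5 CPM, with 299 CPM in cluster 18 and 17.0 CPM in cluster 4. Cxcl2 in neutrophil-like cells stood at 4941, 2125, 3035 and 1174 CPM in the 4 groups, in 76.5%, 63.9%, 66.2% and 48.1% of cells, against 35.3 CPM and 10.8% in NK cell-like cells. Empty droplets held Cxcl2 at 1832 CPM in Blood Control and at 1361 CPM in Blood IR, the latter above the Blood IR cKO value. The part of free RNA in these levels was not tested. Cxcl3 stood at 23.8, 5.03, 10.8 and 3.36 CPM, on 201, 38, 91 and 23 UMIs.

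Blood Cxcl2 was lower after IR and lower in cKO, and the same order was seen inside each large neutrophil-like cluster. For Cxcl2 in whole blood, the log2 ratio of IR over control was -0.74 (-0.76 to -0.71) with WT cells, against -1.01 (-1.05 to -0.98) with cKO cells. Cxcl3 in WT was lower, at -1.18 (-1.57 to -0.83). Members past the limit were 1 of 4 in WT and 1 of 3 in cKO, against 1.30% and 1.41% of genes. Cxcr2 was at 0.02 (-0.02 to 0.05) and 0.19 (0.15 to 0.22), and Cxcr4 at -0.06 (-0.12 to -0.01) and 0.24 (0.18 to 0.31). For cKO over WT, Cxcl2 was lower at -1.21 (-1.24 to -1.19) in control and -1.49 (-1.53 to -1.46) after IR, and Cxcl3 at -2.23 (-2.80 to -1.75) and -1.73 (-2.50 to -1.10), 2 of 4 members past the limit each time, against 2.25% and 0.653% of genes. Cxcr2 was at -0.05 and 0.12, and Cxcr4 at -0.59 and -0.28. With 5 CPM added to each level the Cxcl3 ratios were -0.66 for IR over control in WT, and -1.05 and -0.56 for cKO over WT in control and IR. In cluster 0, the largest, Cxcl2 stood at 5096, 2457, 3211 and 1177 CPM, and in cluster 1 at 4746, 2133, 3004 and 1203 CPM. Clusters 7, 8 and 11 had the same order of WT above cKO and control above IR within each pair.

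The blood clusters differed more in Cxcr4 than in Cxcr2. Cluster 1, which also had Csf1 and Ptgs2 among its leading genes, held Cxcr4 at 793, 723, 832 and 810 CPM, and cluster 0 at 533, 449, 501 and 455 CPM. Cluster 7, led by Lcn2, Retnlg and Ly6g, held 323, 272, 275 and 303 CPM. It contained 1215 of the 2541 neutrophil-like cells of Blood Control cKO and 60 to 86 in each other blood group. The whole-class Cxcr4 of Blood Control cKO, 368 CPM against 524 to 584 in the other 3 groups, moved with that makeup, and within clusters 0, 1 and 8 the cKO over WT levels in control were 449 against 533, 723 against 793 and 570 against 569 CPM. Cluster 23, with the granule protein genes Ltf, Camp and Ngp that mark young neutrophils, held Cxcr2 at 421 CPM, Cxcl2 at 250 CPM and Cxcr4 at 108 CPM in its 72 cells of Blood Control cKO.

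**Figure D5:**
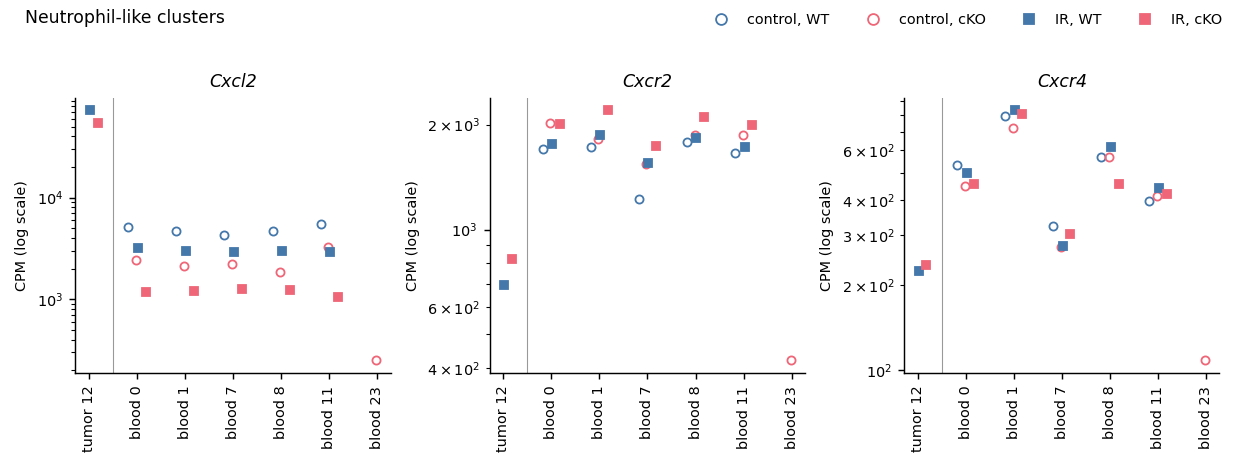
Cxcl2, Cxcr2 and Cxcr4 in CPM on a log axis in tumor cluster 12 and in blood neutrophil-like clusters 0, 1, 7, 8, 11 and 23, 1 point for each group with at least 50 cells. Tumor cluster 12 lies above every blood cluster for Cxcl2 and below clusters 0, 1, 7, 8 and 11 for Cxcr2, and cluster 1 is highest for Cxcr4.

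Neutrophil-like cells of the irradiated tumor were set against those of the blood of the same condition. In WT, Cxcl3 was higher in tumor by 9.89 (9.62 to 10.23) on the log2 scale and Cxcl2 by 4.57 (4.55 to 4.59), and Cxcl1 stood at 261 UMIs of 670566 in tumor against 2 UMIs of 8455403 in blood. Cxcr2 was lower in tumor, at -1.35 (-1.49 to -1.22), as was Cxcr4, at -1.38 (-1.63 to -1.15). In cKO, Cxcl3 was higher by 11.25 (10.78 to 12.03) and Cxcl2 by 5.54 (5.50 to 5.57), Cxcr2 lower at -1.30 (-1.45 to -1.16) and Cxcr4 at -1.15 (-1.43 to -0.89), and Cxcl1 had 76 UMIs in tumor and 0 in blood. All 5 counted members were past the limit in WT and all 4 in cKO, but so were 56.8% and 52.7% of all genes compared, and the median of all genes was -0.85 and -0.67. Both receptor ratios were thus also below the median of all genes in each genotype. Tissue and library cannot be told apart, and the tumor cells had been through tissue dissociation.

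Other genes of the pathway were read from 7 lists of 39 genes. The lists too were chosen with earlier results of these data known, so their counts are a description only. Among other ligands of these receptors, Ppbp, which encodes the platelet chemokine CXCL7, was higher after IR in tumor by 1.40 in WT and 2.17 in cKO, the 1 counted of 3 listed. Of 7 chemoattractant and growth factor receptors of neutrophils, 2 of 7 were higher in WT and 5 of 7 in cKO after tumor IR, against 5.75% and 22.3% of all genes past the limit. Among them was the formyl peptide receptor Fpr2 at 1.03 and 1.86, and the list medians were 0.75 and 1.26. These are sums over all sorted cells, in which the neutrophil-like share also rose. Within macrophage-like cells 1 of 7 was higher in WT and 4 of 7 in cKO, against 6.59% and 16.8% of all genes. The 1 counted other receptor was at -0.39 in WT and -1.75 in cKO, and within macrophage-like cells at -0.21 and 1.48. Of 6 adhesion genes in all sorted cells, 1 was higher in WT and 3 in cKO. Of 6 counted cytokines that induce the ligands, 0 were higher and 2 lower in WT, and 3 lower in cKO, where the growth factor gene Csf2 was at -1.63 and -3.19 and Csf3 at -1.37 and -1.36. The same list had 4 of 6 higher in cKO than in WT in control tumors, against 4.87% of all genes, with Il1a at 1.11, Tnf at 1.36, Il6 at 1.26 and Csf2 at 2.24. None of 6 feedback and mRNA decay regulators of NF-kB, and none of 7 signalling and desensitisation genes of CXCR2, was past the limit after tumor IR in either genotype in sums over all sorted cells. In cKO macrophage-like cells 1 of the 6 was, Tnfaip3, at -1.13 (-1.19 to -1.07). In blood, no list had a gene past the limit for IR over control. For cKO over WT in blood IR the NF-kB inhibitor gene Tnfaip3 was lower, at -1.18.

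Between tumor and blood neutrophil-like cells the lists moved further. All 3 counted inducing cytokines were higher in tumor in both genotypes, in WT Il1a by 11.25, Tnf by 5.91 and Il1b by 1.86. Of the NF-kB feedback and decay list 4 of 6 were higher in WT and 5 of 6 in cKO, with Tnfaip3 at 2.84, Nfkbia, which encodes the inhibitor IkB-alpha, at 2.59 and Ier3 at 4.63 in WT. Of the CXCR2 signalling list 6 of 7 were lower in each genotype, among them the receptor kinase gene Grk2 at -2.47 and the G protein gene Gnai2 at -1.69 in WT. Of 6 adhesion genes 1 was higher and 4 were lower in each genotype, the higher one in WT being Icam1 at 4.47. These counts stand beside the 56.8% and 52.7% of all genes past the limit given above.

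The genes whose level followed each member most closely over 40 class-by-group sums were listed as a description. The sums share libraries, cell makeup and depth. For Cxcl2 they were Ets2 (Pearson r = 0.97), Ptgs2, which encodes cyclooxygenase 2 (0.965), and Il1rn, which encodes the interleukin 1 receptor antagonist (0.961). For Cxcl3 they were Rab20 (0.957), Il1a (0.95) and A930007I19Rik (0.936), and for Cxcl1 they were Fam162a (0.946), Ak4 (0.933) and the metallothionein gene Mt2 (0.932). Cxcr2 was followed by the gelatinase gene Mmp9 (0.989), Stfa2l1 (0.975) and Slc40a1 (0.973), and Cxcr4 by Btg1 (0.926), Mxd1 (0.924) and Jmjd1c (0.918). Among the members, Cxcl2 and Cxcl3 were closest, at 0.877, and Cxcl1 was at 0.562 with Cxcl2 and -0.309 with Cxcr2. Cxcl5, with 30 UMIs in all, was left out.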

How the data were processed

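The authors deposited raw UMI counts per gene and hashtag for every barcode of 4 droplet libraries, aligned to mm10. The matrix headers name Cell Ranger 4, and the submitters' processing notes name Cell Ranger 6.0.1 and Seurat 4.0.6. Cells were called here from the raw matrices (order-of-magnitude rule, then an ambient test at a false discovery rate of 0.01), and kept with at least 500 UMIs, 200 genes, at most 25% mitochondrial UMIs and at least 20 hashtag UMIs. A cell was WT if the WT hashtag was at least the other, and cKO if the other was at least 4 times higher. The Scrublet method by its own threshold marked 0 to 2 cells per library, so the top 6% by score were removed. Cells were clustered with scanpy 1.11.5 (2000 variable genes without the members, 40 components, 20 neighbours, Leiden resolution 1). A cluster took the name of a class with at least 3 markers detected in 25% of its cells at 2-fold, against all other cells or against the same tissue, a rule set after the data were seen. Counts were summed per group and class, given as CPM with 95% Poisson intervals, and compared as log2 ratios with 1 UMI added and an exact conditional binomial interval. PCR copies are collapsed by UMIs, and the intervals cover counting error only. Shares of cells and of UMIs carry exact Clopper-Pearson intervals, and a count of 0 allows 3 counts. Genes with 100 UMIs in a pair were counted, and a log2 ratio of 1 was the limit. The genes named were the 6 members, the past-limit genes of the 7 pathway lists, and the 3 genes most alike to each member by Pearson r of log2(CPM + 10). Members and lists were chosen with earlier results of these data known. The ratio script was tested on simulated data. Alternatives to the calling, hashtag, doublet, clustering, naming, scaling (edgeR 4.0.16, DESeq2 1.42.0) and count minimum were run. Promoters came from RefSeq, and gene positions from an annotation of mm10.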

Additional observations from a re-analysis of the deposited data

Results flagged for a closer look

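The values below stand out because 2 groups moved in opposite directions, or by different amounts, under the same contrast. With 1 pool per group, none of these differences was tested. All are log2 ratios of CPM. For cKO over WT in tumor, Cxcl1 was at 0.99 in control and -0.94 after IR, Cxcl2 at 0.58 and -0.43, and Cxcr2 at 0.57 and -0.50. For cKO over WT in blood, Cxcr2 was at -0.05 in control and 0.12 after IR, both small. For IR over control in macrophage-like tumor cells, Cxcl2 was at 0.46 in WT and -0.32 in cKO. That cKO value was 0.29 when clusters were named against the same tissue alone, 0.25 without doublet removal and 0.23 with UMIs summed over both tumor matrices. For IR over control in WT, tumor and blood went opposite ways for Cxcl2, at 1.03 and -0.74, for Cxcl3, at 1.86 and -1.18, and for Cxcr4, at 0.16 and -0.06. For IR over control in cKO, Cxcl2 was at 0.02 in tumor and -1.01 in blood. For IR over control in blood, Cxcr4 was at -0.06 in WT and 0.24 in cKO. The cKO tumor value of Cxcl2 ran from -0.41 to 0.23 over the alternatives.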

How the results depend on the processing

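No paired analysis was possible because each group is 1 pool, and leaving out a replicate was not possible for the same reason. Of the 23 ratios of 1 or more in size, 18 kept their sign and stayed past the limit under every alternative run for them, and none changed sign. Each ratio was run under 12 to 17 of the 21 alternatives, those that applied to it and left enough UMIs. Of the 29 smaller ratios, 24 stayed under it and 7 changed sign under some alternative.

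The macrophage-like share of ligand UMIs in IR tumors (WT, then cKO) was 36.1% and 42.5% with naming against the same tissue alone, 69.7% and 80.7% against all other cells alone, 38.7% and 55.2% with classes set cell by cell, 67.0% and 77.5% with all genes in the clustering, 57.1% and 65.2% at resolution 0.6, 55.9% and 67.8% at 1.5, 36.4% and 42.8% without doublet removal, 44.3% and 53.0% with all barcodes of 500 UMIs, 55.8% and 62.2% with the order-of-magnitude threshold alone, 53.9% and 65.3% at 10% mitochondrial UMIs, 53.0% and 59.7% with a 4-fold margin for both hashtags, 49.1% and 59.3% with 50 hashtag UMIs, 38.2% and 47.4% with the tumor matrices summed, and 59.4% and 67.5% without the 273 barcodes. The neutrophil-like share of Cxcr2 was 0.0% and 0.0% with naming against all other cells alone, 76.1% and 80.6% cell by cell, 71.0% and 78.5% without doublet removal, 57.1% and 45.8% with the order-of-magnitude threshold alone, which dropped low-UMI cells, and 88.3% in WT at 10% mitochondrial UMIs.

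The count of members past the limit in WT macrophage-like cells, reported as 0, was 2 with naming against the same tissue alone and with no UMI minimum, and 1 under 13 others: classes cell by cell, naming against all other cells, at least 20 UMIs, both hashtag settings, all barcodes, the order-of-magnitude threshold, 10% mitochondrial UMIs, no doublet removal, matrices summed, without the 273 barcodes, resolution 1.5 and all genes. In cKO it went from 2 to 1 with naming against the same tissue, the 4-fold margin, all barcodes, no doublet removal and matrices summed. For cKO over WT it went from 0 to 1 in control tumors (no minimum, without fibroblast-like cells, 4-fold margin, no doublet removal, matrices summed) and in IR tumors (no minimum, 4-fold margin, order-of-magnitude threshold), and from 2 to 1 in blood IR with 5 CPM added. For IR over control in blood, WT went from 1 to 2 with no minimum and 0 with 5 CPM added, and cKO from 1 to 2 with no minimum and 0 with all barcodes. The cause of these moves was not tested. The alternatives that leave out a class or change the naming reference were chosen after seeing the data.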

Other observations

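Dendritic cell-like tumor cells carried most of their Cxcl2 in few cells: the top 10% of cells held 87.1% of its UMIs in Tumor Control WT. The basophil or mast cell-like cells of Tumor Control cKO were 4 cells with 744 Cxcl2 UMIs, 0.458% of that group's Cxcl2, which is too few cells to describe a class.

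Read in the Tumor Control matrix, the barcodes placed in the neutrophil-like class of Tumor IR held Cxcl2 at 64169 CPM against 64601 CPM in their own matrix, and Cxcr2 at 765 against 748 CPM. Read in the Tumor IR matrix, the fibroblast-like barcodes of Tumor Control held Cxcl1 at 2748 CPM against 2697 CPM in their own.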
